A study of Mus musculus with 6 samples.

Results

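Skeletal muscle genes were followed sample by sample in RNA-Seq of embryonic mouse ureters that had been cultured with or without LiCl. The list held 42 genes, chosen by symbol, that encode myogenic transcription factors, proteins of myoblast fusion and of the neuromuscular junction, and components of the sarcomere. Of these, 38 had at least 10 counts in at least 1 sample and were used, out of 56748 gene identifiers and 19903 genes that met the same minimum. The list was drawn up with these counts already known, and the minimum itself was applied to them, so the levels below, the fold changes and the calls describe the members and support no claim about them as a group.

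Ureters of wildtype NMRI mouse embryos, an outbred strain, were dissected at E12.5 and cultured for 18 h on transwell membranes. The LiCl group (replicates 1 to 3) received LiCl at 15 mM, which blocks GSK3 kinases and thereby activates canonical WNT signaling, and the control group (replicates 1 to 3) received water. Strain, genotype, stage and culture time were the same in both groups. Poly-A RNA was sequenced from 3 samples per group, with total counts between 28473436 and 31266945 per sample. The number and sex of the embryos behind a sample are not given in the sources used here, and nothing in the labels says that replicates came from separate litters, so p-values measure the spread among these samples only. At this depth, 3 counts, the most that a count of 0 allows, correspond to 0.0959 to 0.105 CPM (counts scaled to library size), a limit that covers counting error alone.

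Skeletal muscle arises from myogenic progenitors that carry the paired box factors PAX3 and PAX7. The basic helix-loop-helix factors MYF5, MYOD1, MYF6 and myogenin (MYOG) commit these cells and drive their differentiation, in part by binding E-box motifs in muscle gene promoters together with MEF2 factors. Differentiating myoblasts fuse through the membrane proteins myomaker (MYMK) and myomixer (MYMX), cluster acetylcholine receptors at the nerve contact, and assemble sarcomeres from thick myosin and thin actin filaments. The wall of the ureter, in contrast, is built by visceral smooth muscle, which uses a different set of contractile genes. Several genes of the list, such as *Actc1*, *Tnnt2*, *Tnnc1* and *Myl4*, are also used by embryonic heart muscle.

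The promoters of 7 members are shown so that the motifs of muscle regulators can be read in genes of different roles, fusion genes not included. They are the members of highest level in their class that had an entry in the promoter table, plus *Myh3*, which was chosen after its values were seen. Each spans 250 bases before to 50 bases after the annotated start (RefSeq, build GRCm38.p6, 5′ to 3′ on the gene's strand), whereas the counts were made on GRCm39. Capitals mark the E-box letters CANNTG, the MEF2 site as YTAWWWWTAR and the CArG box as CCWWWWWWGG. Here Y is C or T, W is A or T, and R is A or G. Only exact matches are marked, so ctatatttat in *Myog*, which departs from the MEF2 letters at its last base, is not.
Myog (chr1:134289754-134290053, plus strand): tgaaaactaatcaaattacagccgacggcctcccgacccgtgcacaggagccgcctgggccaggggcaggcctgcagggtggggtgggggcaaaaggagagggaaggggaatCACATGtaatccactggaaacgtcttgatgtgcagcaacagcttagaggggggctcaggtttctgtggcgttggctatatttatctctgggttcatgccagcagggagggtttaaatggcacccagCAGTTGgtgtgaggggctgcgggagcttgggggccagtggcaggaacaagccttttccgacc
Myh3 (chr11:67078050-67078349, plus strand): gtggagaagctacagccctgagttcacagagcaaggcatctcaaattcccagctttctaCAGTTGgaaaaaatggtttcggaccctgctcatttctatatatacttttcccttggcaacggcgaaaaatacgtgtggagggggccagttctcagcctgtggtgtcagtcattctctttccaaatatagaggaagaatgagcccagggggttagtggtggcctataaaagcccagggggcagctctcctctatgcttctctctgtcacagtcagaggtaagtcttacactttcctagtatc
Mylpf (chr7:127211358-127211657, plus strand): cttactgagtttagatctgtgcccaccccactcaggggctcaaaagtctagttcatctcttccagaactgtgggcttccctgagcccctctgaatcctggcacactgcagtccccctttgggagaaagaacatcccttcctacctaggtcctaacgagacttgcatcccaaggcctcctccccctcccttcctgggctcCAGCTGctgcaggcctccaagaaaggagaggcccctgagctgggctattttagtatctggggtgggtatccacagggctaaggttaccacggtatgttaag
Klhl41 (chr2:69669870-69670169, plus strand): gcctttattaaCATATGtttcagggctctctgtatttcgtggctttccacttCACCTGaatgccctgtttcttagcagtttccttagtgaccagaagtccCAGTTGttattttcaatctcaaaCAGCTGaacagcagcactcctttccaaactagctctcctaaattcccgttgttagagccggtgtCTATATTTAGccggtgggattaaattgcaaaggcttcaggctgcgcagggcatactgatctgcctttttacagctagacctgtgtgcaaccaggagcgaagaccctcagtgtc
Casq2 (chr3:102086165-102086464, plus strand): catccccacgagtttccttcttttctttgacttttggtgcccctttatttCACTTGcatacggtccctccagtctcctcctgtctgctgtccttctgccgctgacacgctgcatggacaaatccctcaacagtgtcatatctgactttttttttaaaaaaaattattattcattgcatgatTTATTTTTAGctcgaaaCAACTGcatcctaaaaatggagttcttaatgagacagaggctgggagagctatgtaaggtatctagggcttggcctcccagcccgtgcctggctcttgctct
Actc1 (chr2:114052826-114053125, minus strand): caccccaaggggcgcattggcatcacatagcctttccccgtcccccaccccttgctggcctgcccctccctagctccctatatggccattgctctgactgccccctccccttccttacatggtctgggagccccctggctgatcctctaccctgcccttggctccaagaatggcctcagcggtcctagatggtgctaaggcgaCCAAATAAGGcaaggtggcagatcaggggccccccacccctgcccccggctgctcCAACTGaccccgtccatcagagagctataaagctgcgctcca
Chrnb1 (chr11:69795888-69796187, minus strand): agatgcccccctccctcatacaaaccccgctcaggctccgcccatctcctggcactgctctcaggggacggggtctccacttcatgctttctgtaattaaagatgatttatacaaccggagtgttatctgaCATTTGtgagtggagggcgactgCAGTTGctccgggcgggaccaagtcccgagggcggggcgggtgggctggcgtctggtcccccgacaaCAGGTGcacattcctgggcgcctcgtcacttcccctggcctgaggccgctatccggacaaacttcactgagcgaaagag

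An entry was found for 28 of the members used. The letters CANNTG occurred in 23 of these 28 genes (82.1%) and in 72.3% of all 32851 promoters of the table, so an E-box by itself was common. The E-box variant CAGCTG, which is contained in CANNTG, occurred in 12 of 28 (42.9%) against 16.3% of all promoters. An exact match to the MEF2 letters was present in 4 of 28 (14.3%) against 3.19%, among them *Klhl41* and *Casq2*. Near matches, such as that of *Myog*, were not counted in either share. The CArG box, the motif of serum response factor, was present in *Acta1* and *Actc1* only, 2 of 28 (7.14%) against 1.63%. All motifs read the same on both strands. The shares of the members count a gene once where any of its promoters matched, whereas the shares of the table count promoters, and a match describes letters, not binding.

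Summed over the 38 members, the level was nearly the same in the 3 controls, with 85.6, 87.5 and 82.7 CPM in replicates 1 to 3. In the LiCl group it was 160 CPM in replicate 1, 82.0 in replicate 2 and 254 in replicate 3. LiCl replicates 1 and 3 thus lay above every control, and LiCl replicate 2 lay just below the lowest of them. *Actc1*, *Chrnb1* and *Ryr1* made up most of the summed level in the controls. Without these 3 genes, chosen after their values were seen, the sums were 28.4, 31.0 and 26.1 CPM in the controls and 80.1, 23.5 and 157 CPM in LiCl replicates 1 to 3. In bulk samples, fewer cells of a type and less RNA per cell cannot be told apart.

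**Figure D1:**
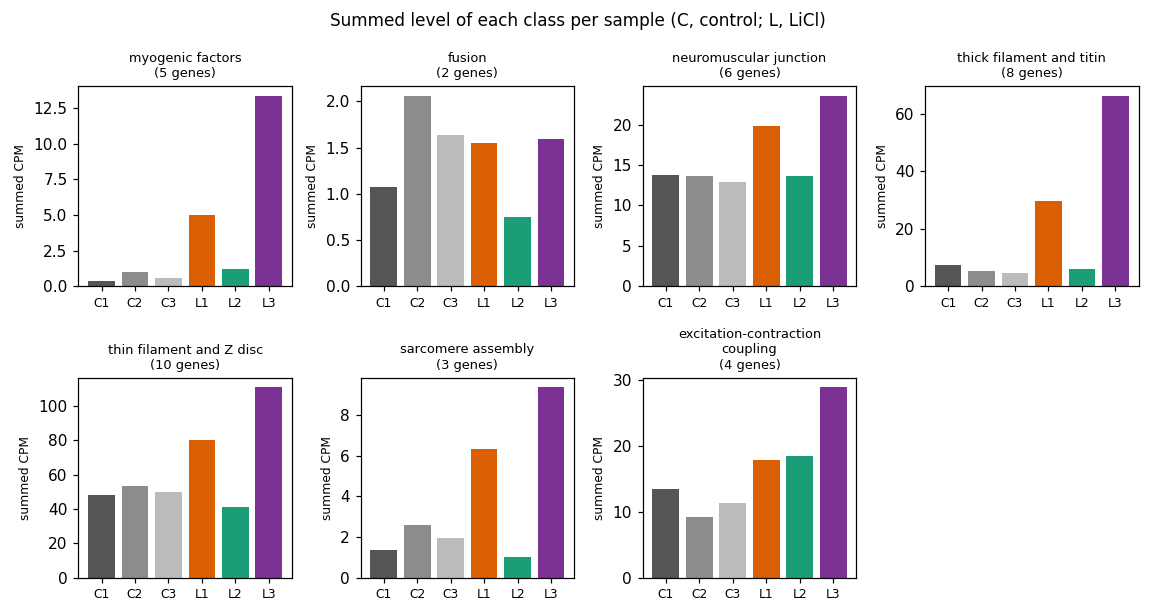
Summed CPM of the used members of each class (y axis, linear, from 0) in the 3 control samples (C1 to C3, gray) and the 3 LiCl samples (L1 to L3, colored), 1 bar per sample. In every class but fusion, L3 is the highest bar, and L2 lies within or below the controls for the thin filament, thick filament and assembly genes but above them for excitation-contraction coupling, where it is 18.4 CPM.

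LiCl replicate 3 was the highest of the 6 samples for 37 of the 38 members (97.4%), whereas it was the highest for 13.3% of all genes with at least 10 counts in a sample. The exception was *Mymx*, which was highest in control replicate 2. For 31 members (81.6%), LiCl replicates 1 and 3 both lay above the 4 other samples, against 14.8% of all genes. Part of this follows from the minimum, because 13 members reached 10 counts in LiCl samples only. Of the 25 members that reached it in both groups, 24 were highest in LiCl replicate 3 and 19 had LiCl replicates 1 and 3 on top. In LiCl replicate 2, 17 members lay within the range of the controls, 11 below it and 10 above it.

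**Figure D2:**
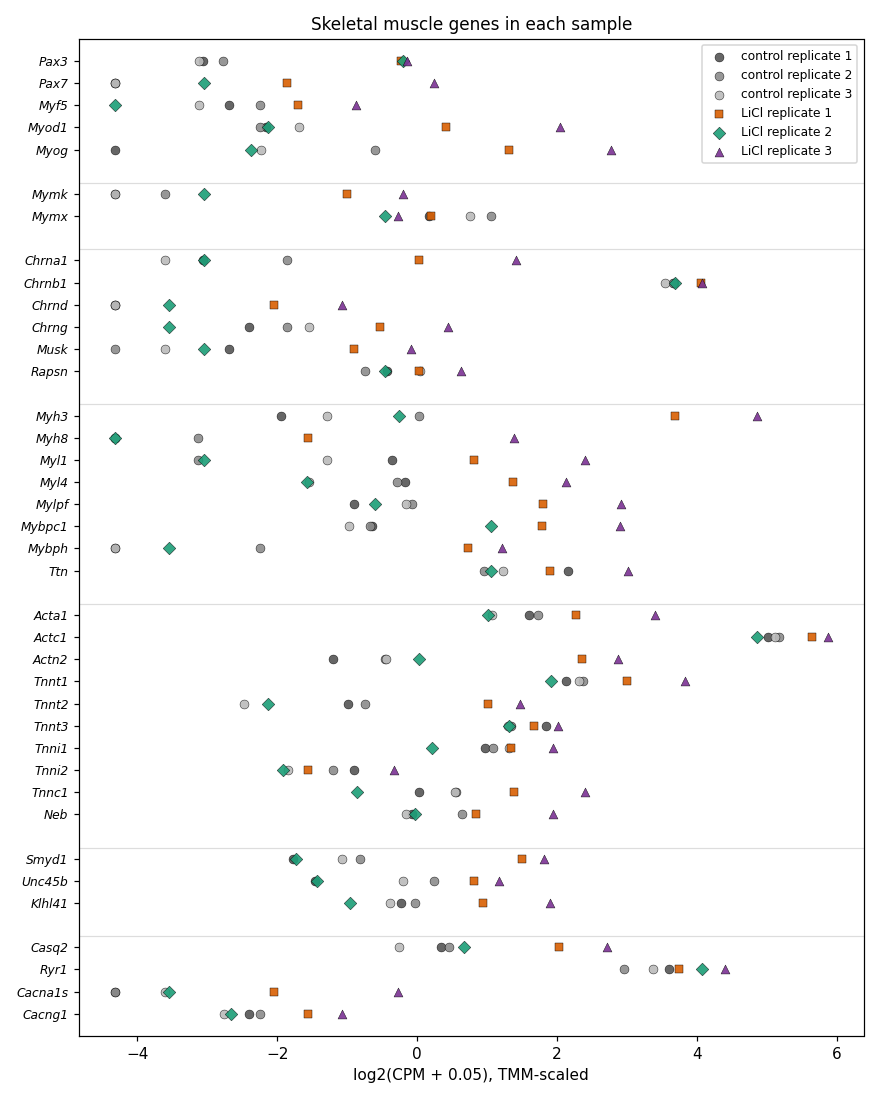
Level of each of the 38 members (rows, grouped by class) as log2(CPM + 0.05) on the x axis, with 1 symbol per sample; circles are controls, and the square, diamond and triangle are LiCl replicates 1, 2 and 3. The triangle is rightmost in 37 of 38 rows and the square usually follows it, while the diamond falls within the range of the circles for 17 members.

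The LiCl samples differed widely from each other in most of the tested members. On the log2(CPM + 0.5) scale, the 3 LiCl samples spanned more than 1 in 19 of the 26 members that were tested (73.1%) and in 1.03% of all 18188 tested genes. *Actc1*, at a span of 1.00, was the member closest to this limit. The 3 controls spanned more than 1 in 5 of 26 members (19.2%) and in 0.99% of all tested genes. *Myh3* had the widest LiCl span of the members, 4.51, next to a control span of 1.05. *Pax3* had a LiCl span of 0.05 and a control span of 0.08.

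**Figure D3:**
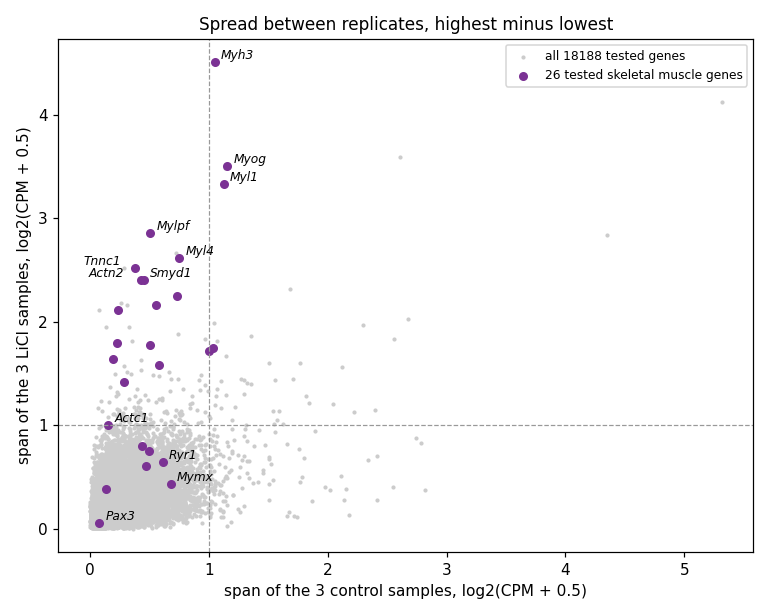
Span (highest minus lowest sample) on the log2(CPM + 0.5) scale within the 3 controls (x axis) and within the 3 LiCl samples (y axis) for all 18188 tested genes (gray) and the 26 tested members (purple); dashed lines mark a span of 1. Of the members, 19 lie above the horizontal line and 5 right of the vertical line, and *Pax3* lies near 0 on both axes.

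The counts of LiCl and control samples were compared with edgeR's quasi-likelihood test over all 18188 genes that passed the filter on low counts. Calls required a Benjamini-Hochberg adjusted p under 0.05 together with a change of more than 1 on the log2 scale in either direction. Of the members, 26 passed the filter, and *Pax3* did so through its LiCl counts alone. *Pax7*, *Myf5*, *Myod1*, *Mymk*, *Chrna1*, *Chrnd*, *Chrng*, *Musk*, *Myh8*, *Mybph*, *Cacna1s* and *Cacng1* were not tested. Among the 26, 8 were called higher (*Pax3*, *Myog*, *Myh3*, *Mylpf*, *Mybpc1*, *Actn2*, *Smyd1* and *Casq2*) and none lower, while 2.74% of all tested genes were called higher and 4.59% lower. With no fold change minimum, 10 were higher and 1 was lower, against 21.1% and 22.4% of all tested genes. The median log2 fold change was 1.09 over the 26 members and -0.01 over all tested genes, and since the contrast was known when the list was drawn up, nothing is read from these shares. With DESeq2, 14 of the 38 members were called higher and none lower, against 1.56% and 2.25% of the 32775 genes with any count. Without the filter on low counts edgeR called 25 of the 38 higher and none lower, against 2.09% and 3.04% of the same 32775 genes. These shares are not like for like, because all 38 members had reached 10 counts in a sample, as 19903 genes did. Of the members, 13 had reached it in LiCl samples only. In 6 of 26 members (23.1%) all LiCl samples lay above all controls, which is below the 26.4% of all tested genes, and in none did they lie below, against 27.8%.

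The progenitor factor gene *Pax3* did not follow the order of most other members. It had control counts of 2, 3 and 2 and LiCl counts of 25, 23 and 24, in the order of replicates 1 to 3 as everywhere below. The LiCl samples were nearly level with each other, all lay above the controls, and the log2 fold change was 3.35 ± 0.37 (SE, n = 3 per group, edgeR adjusted p = 0.00012). *Pax3* passed the filter on low counts through its LiCl counts alone, so these values are a description only. *Pax7*, the other paired box factor of muscle progenitors, had 0 counts in all controls and 7, 2 and 32 counts in LiCl replicates 1 to 3. It was thus found in every LiCl sample, but unevenly, in the order of most members. In replicate 2 it was near the limit of detection, and it was not tested.

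Like *Pax7*, the genes of the committed and differentiating stages were uneven among the LiCl samples. *Myf5*, which marks early commitment, had control counts of 3, 5 and 2 and LiCl counts of 8, 0 and 14. *Myod1*, the determination factor, had control counts of 5, 5 and 8 and LiCl counts of 40, 5 and 115. LiCl replicate 2 thus gave no *Myf5* count and a control-like *Myod1* count. *Myog*, which drives terminal differentiation, had control counts of 0, 19 and 5 and LiCl counts of 76, 4 and 192. Its control replicate 2 lay above LiCl replicate 2, so the groups overlapped, and the log2 fold change was 3.55 ± 1.14 (SE, n = 3 per group, edgeR adjusted p = 0.031, from 8.7e-07 to 0.72 over the alternatives). *Myf6*, a factor of late fibers, stayed at 1 to 2 counts in every sample and fell short of the minimum. Deposited FPKM values are normalized for gene length and depth. On this scale *Myog* reached 4.57 FPKM and *Myod1* 2.20 FPKM in LiCl replicate 3, against at most 0.41 and 0.14 FPKM in the controls. Both exceeded *Myf5* (0.24 FPKM) and *Pax7* (0.19 FPKM) in that sample.

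The fusion genes parted from each other. *Mymk*, encoding the fusion protein myomaker, had control counts of 0, 1 and 0 and LiCl counts of 14, 2 and 23, in the order of the myogenic factors. *Mymx*, encoding its partner myomixer, had control counts of 31, 63 and 50 and LiCl counts of 34, 19 and 22. It was the single member used whose mean CPM was lower in the LiCl group. LiCl replicate 1 overlapped the controls, and the log2 fold change of -0.89 ± 0.30 (SE, n = 3 per group, edgeR adjusted p = 0.039, from 0.017 to 0.14 over the alternatives) did not pass the fold change minimum. Without control replicate 1 it was -1.09 and without LiCl replicate 1 it was -1.11, and *Mymx* was then called lower.

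At the neuromuscular junction, the subunits of the acetylcholine receptor behaved unequally. *Chrnb1*, the beta subunit gene, had control counts of 366, 392 and 355 and LiCl counts of 516, 357 and 475. In CPM, which allows for depth, it was 11.6 to 12.7 in the controls and 12.8 to 16.8 with LiCl. The groups did not overlap on this scale by a narrow margin, which was lost when library size alone was used for scaling, and the log2 fold change was 0.32 ± 0.11 (SE, n = 3 per group, edgeR adjusted p = 0.045, from 0.005 to 0.77 over the alternatives). *Chrna1*, the alpha subunit gene, had control counts of 2, 7 and 1 and LiCl counts of 30, 2 and 74. *Chrng*, the gamma subunit gene of the fetal receptor, had control counts of 4, 7 and 9 and LiCl counts of 20, 1 and 37. For both, LiCl replicate 2 lay at or below the controls and the groups overlapped. *Rapsn*, which encodes the receptor-clustering protein rapsyn, had control counts of 20, 17 and 30 and LiCl counts of 30, 19 and 42, a log2 fold change of 0.49 ± 0.35 (SE, n = 3 per group, edgeR adjusted p = 0.29) that stayed within the spread of the replicates. *Chrnd*, the delta subunit gene, had 0 counts in all controls and 6, 1 and 12 with LiCl, and *Musk*, the receptor kinase of the junction, had control counts of 3, 0 and 1 and LiCl counts of 15, 2 and 25. *Chrnb1* was therefore the single subunit gene with a high level in the controls, 4.53 to 4.96 FPKM, while *Chrna1* had at most 0.05 FPKM there.

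The thick filament genes held the widest differences between samples. *Myh3*, the embryonic myosin heavy chain of newly formed fibers, had control counts of 6, 30 and 11 and LiCl counts of 397, 22 and 814. LiCl replicate 2 lay within the controls, and the log2 fold change was 4.76 ± 1.10 (SE, n = 3 per group, edgeR adjusted p = 0.007, from 2.7e-11 to 0.59 over the alternatives). *Mylpf*, the regulatory light chain of fast muscle, had control counts of 14, 28 and 26 and LiCl counts of 107, 17 and 212, with the groups overlapping again through replicate 2. Its log2 fold change was 2.36 ± 0.71 (SE, n = 3 per group, edgeR adjusted p = 0.025, from 9.8e-07 to 0.73 over the alternatives).

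*Mybpc1*, the slow myosin-binding protein C, differed in that all LiCl samples were higher. It had control counts of 17, 18 and 14 and LiCl counts of 106, 57 and 209. The groups did not overlap, and the log2 fold change was 2.97 ± 0.48 (SE, n = 3 per group, edgeR adjusted p = 0.001, from 1.3e-11 to 0.059 over the alternatives). *Myl1*, a fast essential light chain, had control counts of 21, 2 and 11 and LiCl counts of 53, 2 and 148, so that control replicate 2 and LiCl replicate 2 were equally low. Its log2 fold change of 2.61 ± 1.04 did not pass (SE, n = 3 per group, edgeR adjusted p = 0.07). Of the other thick filament genes, *Myl4*, an atrial and fetal light chain, had 9 to 24 control counts and LiCl counts of 79, 8 and 122, *Mybph*, a myosin-binding protein of fast muscle, had 0 to 5 control counts and LiCl counts of 50, 1 and 64, and *Myh8*, the perinatal myosin heavy chain, had 0 to 2 control counts and LiCl counts of 9, 0 and 72. *Ttn*, the giant spring protein of the sarcomere, was less different, with 59 to 127 control counts and LiCl counts of 115, 57 and 226. The myosin heavy chain genes belong to a family, and reads shared between its genes were not measured, so their counts are uncertain. Of the exon bases of *Mybph*, 49.9% overlap *Adora1* on the opposite strand.

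Of the 10 thin filament and Z disc genes, *Actn2* alone was called. *Actc1*, the cardiac actin that is also used by early skeletal muscle, had control counts of 932, 1121 and 1060 and LiCl counts of 1554, 811 and 1651. LiCl replicate 2 was the lowest of the 6 samples, and the log2 fold change of 0.42 ± 0.20 did not pass (SE, n = 3 per group, edgeR adjusted p = 0.13). *Acta1*, the skeletal actin, had control counts of 86, 101 and 63 and LiCl counts of 149, 55 and 297, a log2 fold change of 1.06 ± 0.49 that did not pass either (SE, n = 3 per group, edgeR adjusted p = 0.11). Reads of these actins can be shared between the copies, which makes their split uncertain. *Actn2*, the alpha-actinin of the Z disc, had control counts of 11, 21 and 21 and LiCl counts of 158, 27 and 205. All LiCl samples lay above the controls, replicate 2 by the least, and the log2 fold change was 2.92 ± 0.64 (SE, n = 3 per group, edgeR adjusted p = 0.0055, from 1.4e-09 to 0.32 over the alternatives).

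The troponin genes were not called, and several of them were well counted in the controls. *Tnnt1*, the slow troponin T, had control counts of 124, 159 and 151 and LiCl counts of 247, 104 and 400. *Tnnc1*, the slow and cardiac troponin C, had control counts of 28, 44 and 43 and LiCl counts of 80, 14 and 148. LiCl replicate 2 was the lowest sample for both, and neither fold change passed (log2 values of 0.85 ± 0.38 and 1.13 ± 0.61, SE, n = 3 per group). *Tnnt2* had a log2 fold change of 2.10 ± 0.78 (SE, n = 3 per group, edgeR adjusted p = 0.054) on 4 to 17 control counts and LiCl counts of 61, 5 and 77. *Tnnt3*, *Tnni1* and *Tnni2*, with log2 fold changes between 0.18 and 0.20, did not differ beyond the spread of the replicates, and *Neb*, the thin filament ruler nebulin, had 0.98 ± 0.47 (SE, n = 3 per group). *Tnnc2*, the fast troponin C, had at most 2 counts in any sample and was not used.

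The genes for sarcomere assembly followed the thick filament. *Smyd1*, a muscle methyltransferase needed for myofibril formation, had control counts of 7, 16 and 13 and LiCl counts of 86, 7 and 98. Its log2 fold change was 2.44 ± 0.74 (SE, n = 3 per group, edgeR adjusted p = 0.025, from 5.4e-06 to 0.56 over the alternatives), with LiCl replicate 2 at the level of the lowest control. *Klhl41*, a kelch protein of the sarcomere, had control counts of 23, 29 and 22 and LiCl counts of 58, 13 and 104. *Unc45b*, the myosin chaperone, had control counts of 9, 35 and 25 and LiCl counts of 53, 9 and 62. Neither passed, at log2 fold changes of 1.29 ± 0.57 and 0.90 ± 0.61 (SE, n = 3 per group). *Xirp1*, an actin-binding repair protein, reached at most 6 counts.

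In excitation-contraction coupling, both tested genes were higher in every LiCl sample. *Casq2*, a calcium-binding protein of the sarcoplasmic reticulum, had control counts of 35, 41 and 24 and LiCl counts of 125, 43 and 183. LiCl replicate 2 exceeded the highest control by a small margin, and the log2 fold change was 1.86 ± 0.46 (SE, n = 3 per group, edgeR adjusted p = 0.01, from 3.5e-07 to 0.42 over the alternatives). *Ryr1*, the calcium release channel, had control counts of 346, 239 and 317 and LiCl counts of 416, 467 and 596. Here LiCl replicate 2 lay above LiCl replicate 1, which no other member with more than 100 counts showed, and the log2 fold change was 0.77 ± 0.19 (SE, n = 3 per group, edgeR adjusted p = 0.01), below the fold change minimum. *Cacna1s*, the voltage sensor that opens this channel, had control counts of 0, 0 and 1 and LiCl counts of 6, 1 and 22, and its subunit gene *Cacng1* had control counts of 4, 5 and 3 and LiCl counts of 9, 3 and 12. *Ckm*, the muscle creatine kinase of mature fibers, had at most 4 counts, in control replicate 2. The minimum of 10 counts thus fell between *Cacng1* and *Chrnd*, each with 12 counts in their highest sample, and *Myf5* with 14, on the inside, and *Xirp1* with 6, *Ckm* with 4, and *Tnnc2* and *Myf6* with 2 on the outside.

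Levels of different members were compared per gene length, in FPKM. In LiCl replicate 3, *Actc1* was highest at 36.3 FPKM, followed by *Mylpf* (7.10), *Acta1* (6.88), *Chrnb1* (6.68), *Tnnt1* (6.46), *Tnnc1* (5.06), *Myh3* (4.78) and *Myog* (4.57). In the controls, *Actc1* was also highest at 19.7 to 22.2 FPKM, and *Chrnb1* followed at 4.53 to 4.96 FPKM. *Mylpf* and *Myh3*, which stood near the top of LiCl replicate 3, were at most 0.84 and 0.16 FPKM in the controls. Between *Mylpf* and *Tnnt1* in LiCl replicate 3, the neighbors in this order differed by less than the LiCl replicates of any of these genes did.

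The excess in LiCl replicate 3 over LiCl replicate 1 was not the same for every member. Over the 31 members with at least 10 counts in both, the CPM ratio of replicate 3 to replicate 1 ran from 0.71 to 3.17 with a median of 1.79, whereas the median over all tested genes was 0.997. *Myod1* had a ratio of 3.17 (95% exact interval 2.19 to 4.66, counting error only) and *Myh3* had 2.26 (2.00 to 2.55). *Actc1* had 1.17 (1.09 to 1.26), *Smyd1* had 1.26 (0.93 to 1.70), and *Pax3* had 1.06 (0.58 to 1.93). The intervals of *Myod1* and *Myh3* did not include the ratio of *Actc1*, so the ratio differed between these members beyond counting error. For *Smyd1* and *Pax3* a difference between the libraries was not detectable at this depth. Control levels were not subtracted, and a level shared by all samples draws a ratio toward 1. In the controls *Actc1* had 32.4 to 36.1 CPM, *Myh3* 0.21 to 0.97 CPM and *Myod1* 0.16 to 0.26 CPM. The part of this in the differing ratios was not tested.

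Because the LiCl samples differed so much, each fold change was computed again with samples left out. With LiCl replicate 2 left out, 23 of 32 tested members were called higher, beside 556 of all tested genes. Added to the 8 were 15 members: *Acta1*, *Chrna1*, *Chrng*, *Klhl41*, *Musk*, *Mybph*, *Myl1*, *Myl4*, *Mymk*, *Myod1*, *Neb*, *Tnnc1*, *Tnnt1*, *Tnnt2* and *Unc45b*. Of these, *Myod1*, *Mymk*, *Chrna1*, *Chrng*, *Musk* and *Mybph* had not been tested with all samples. Their control counts were at most 9, so they passed the filter through LiCl counts alone. Their calls are a description only, also where a control was left out. Left out in turn, LiCl replicate 3 gave 5 calls (*Pax3*, *Myh3*, *Mybpc1*, *Actn2* and *Casq2*) and LiCl replicate 1 gave 7, without *Smyd1*. The control samples also bore on the calls. *Mylpf* and *Smyd1* were lost without any 1 of the controls, *Myog* was lost without control replicate 1 and without control replicate 3, and 7, 9 and 6 members were called without control replicates 1, 2 and 3. *Pax3*, *Myh3*, *Mybpc1*, *Actn2* and *Casq2* were called in each of these 6 fits. For *Pax3*, which passed the filter through LiCl counts alone, this is a description only. Over all tested genes, 523, 508 and 493 were called higher without control replicates 1, 2 and 3. Without LiCl replicates 1, 2 and 3 the numbers were 477, 556 and 489, against 498 with all samples (2.74% of 18188). How many genes were tested in the fits with a sample left out is not given here. No share is therefore set beside their member counts, and nothing is read from them.

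LiCl replicate 2 was then set alone against the 3 controls, a comparison chosen after the data were seen, in which the lone sample was assumed to vary like the controls. *Pax3*, at a log2 fold change of 3.35 (edgeR adjusted p = 0.0085), and *Mybpc1*, at 1.91 (edgeR adjusted p = 0.0076), were called, and *Ryr1* was at 0.75 (edgeR adjusted p = 0.032). Among the members called in the fit with all samples, *Myog*, *Mylpf* and *Smyd1* turned negative, with log2 fold changes of -0.85, -0.29 and -0.65. *Myh3*, *Actn2* and *Casq2* kept positive values of 0.61, 0.73 and 0.48 that did not pass (edgeR adjusted p = 0.59, 0.32 and 0.42). Of the tested members not called in the fit with all samples, *Chrnb1* (0.06) and *Ryr1* alone had positive values here. The others were negative, with *Myl1* lowest at a log2 fold change of -2.33. *Pax3* had passed the filter through its LiCl counts, so its value is a description only.

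**Figure D4:**
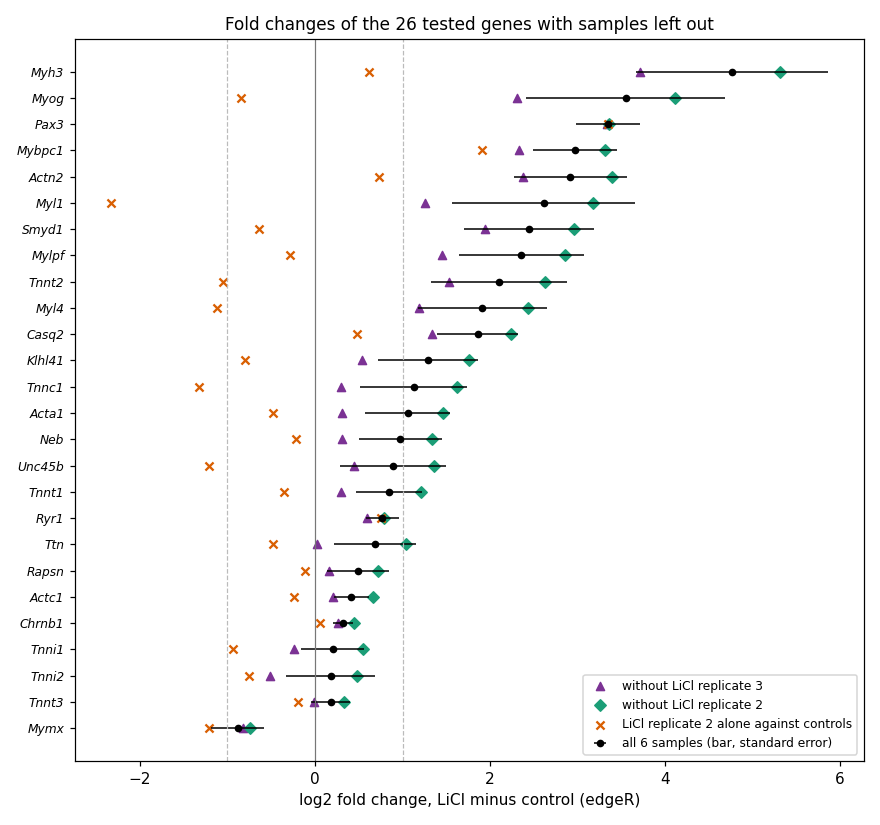
Log2 fold change of LiCl against control (x axis) for the 26 tested members (rows), with all 6 samples (black, bar = standard error), without LiCl replicate 3 (triangles), without LiCl replicate 2 (diamonds) and for LiCl replicate 2 alone against the controls (crosses); dashed lines mark -1 and 1. For *Pax3* all symbols lie near 3.35, whereas for *Myog* they run from -0.85 to 4.11.

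Other genes of skeletal muscle that were not members were counted in the same way. Of 84 such genes in 3 lists (lineage regulators, fiber genes, and membrane, calcium and junction genes), 83 were found, 69 reached 10 counts and 56 were tested. LiCl replicates 1 and 3 lay above the other samples in 19 of the 69 (27.5%), and in 13 of 31 fiber genes (41.9%), against 14.8% of all genes. Of the 56, 2 were called higher and 4 lower, with a median log2 fold change of -0.10. *Synpo2l*, a Z disc protein, had control counts of 16, 20 and 14 and LiCl counts of 60, 15 and 119 (log2 fold change 2.00, edgeR adjusted p = 0.027), in the order of the members. *Colq*, the collagen tail of acetylcholinesterase, and *Hspb7*, a small heat shock protein, were called lower, at -1.81 and -1.60. Many genes of these lists are also expressed outside of skeletal muscle.

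The summed markers of other tissues did not show the order of the members, but a sum is weighted toward its most abundant genes. The smooth muscle list summed to 307 to 324 CPM in the controls and 237 to 245 CPM with LiCl, with 3 of 10 genes called lower (*Actg2*, *Myh11* and *Cnn1*) and none higher. The heart list, relevant because sarcomere genes are shared with the heart, summed to 6.93 to 11.3 CPM in the controls and 7.01 to 7.84 CPM with LiCl. Its defining gene *Nkx2-5* had 0 counts in all 6 samples, and *Myh6* had 9 to 24 control counts and 5 to 8 LiCl counts. The most counted genes of this list were *Ryr2* and *Tnni3*. *Ryr2* had 105 to 210 control counts and 72 to 151 LiCl counts. *Tnni3* had control counts of 68, 81 and 88 and LiCl counts of 118, 58 and 88. In the lists for tendon and cartilage, neurons, Schwann cells and neural crest, erythroid cells, endothelium, macrophages, nephron progenitors, ureteric epithelium and ureteric mesenchyme, no gene with at least 10 counts had LiCl replicates 1 and 3 on top, nor did any of the smooth muscle list, whereas 1 of 4 such heart genes, *Tnni3*, did. In the list of somite and limb mesenchyme 2 of 11 genes did (18.2%), near the 14.8% of all genes. The lists in which no gene did held 6 to 10 genes with at least 10 counts, too few to set against that share. *Meox2*, a homeobox gene of somites and limb muscle, was 1 of the 2 in the somite and limb list. It had control counts of 20, 23 and 28 and LiCl counts of 83, 54 and 110 (log2 fold change 1.85 ± 0.29, SE, n = 3 per group, called higher). The 1 gene of that list called lower was *Tcf15*, a factor of early somites, with control counts of 65, 99 and 112 and LiCl counts of 24, 24 and 26 (log2 fold change -1.83 ± 0.24, SE, n = 3 per group). The markers of the labelled tissue were present in every sample, with 816 to 1273 CPM for ureteric epithelium and 2098 to 2278 CPM for ureteric mesenchyme. The epithelial sum was lower in all LiCl samples, at 816 to 852 CPM. The part of these markers in the values of the members was not tested.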

How the data were processed

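Ureter explants of E12.5 embryos were profiled by RNA-Seq after 18 h in water control medium or in 15 mM LiCl (3 samples per group, assigned from the sample labels). Libraries were stranded and poly-A selected. The authors deposited raw counts for 56748 Ensembl gene identifiers, made by read filtering, alignment to GRCm39 and counting per gene with featureCounts. The study's methods name HISAT2 as the aligner, whereas the submitters' processing notes list STAR 2.7 next to fastp 0.23, featureCounts 2.0 and DESeq2 1.40, so the aligner is uncertain. The annotation release and the strand setting of the counting are not given in the sources used here, so overlapping genes on opposite strands and near-identical copies are uncertain. Values in FPKM, 1 file per sample, were deposited by the authors as well. Dividing counts by DESeq2 size factors and by these FPKM values gave whole-number gene lengths for 100% of 13480 genes with more than 50 counts (tolerance 0.05). All sample columns were used.

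Symbols came from a GENCODE vM21 table (GRCm38) that held 52073 of the identifiers, and the others carried 0.191% of the counts. Promoters came from RefSeq tables of GRCm38.p6 and were searched for E-boxes, the MEF2 site and the CArG box. No coordinate was transferred between builds.

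The deposited counts entered edgeR 4.0.16 (R 4.3.3) with filterByExpr at a minimum count of 10, TMM scaling and the quasi-likelihood F test, and p-values were adjusted by Benjamini-Hochberg over 18188 tested genes. The common dispersion was 0.00665. The coefficient divided by the root of F gave the standard error. CPM used TMM factors, and log2 spans a pseudocount of 0.5. In place of TMM, RLE size factors or plain library size were tried, in place of edgeR, DESeq2 1.42.0, and in place of the filter, either none or 10 counts required in all samples. Further fits took replicate numbers as a block, left out 1 sample at a time, or dropped the fold change minimum. FPKM was analysed with limma 3.58.1 after adding 1 or 0.1 and taking log2, on genes averaging 0.5 FPKM or more, and after adding 1 on every gene. A fit without LiCl replicates 1 and 3 was chosen once the data had been seen. Simulated counts served to test the edgeR, DESeq2 and limma fits.

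The members, the other gene lists and the tests were chosen with earlier results of these data known. Values in every sample are given for up to 4 members per class with the highest FPKM and for every called member. The others are given by range, or with their counts where these were few. Of the other lists, up to 3 called genes are named. The non-member genes closest to the pattern were the 10 with the largest ratio, at a mean of 1 CPM or more, between the smaller value of LiCl replicates 1 and 3 and the highest of the 4 other samples. Of these 10, 1 is not reported here.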

Additional observations from a re-analysis of the deposited data

How the results depend on the processing

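The number of members called higher, 8 of 26, was 8 with RLE size factors and with library size only, 14 of 38 with DESeq2, 25 of 38 with no filter on low counts and 4 of 17 with at least 10 counts in every sample. Of all genes, 2.74% were called higher in the main fit, 1.56% with DESeq2 and 2.09% with no filter on low counts. The number of members called higher has no such share here in the other fits. It was 0 of 18 with limma on log2(FPKM + 1), 3 of 18 with limma on log2(FPKM + 0.1), 0 of 38 with limma on log2(FPKM + 1) without filter, and 2 of 26 with LiCl replicate 2 alone against the controls. Fits that left out one sample each gave from 5 to 23, the highest without LiCl replicate 2 and the lowest without LiCl replicate 3. The number called lower, 0, was from 0 to 1 in these fits and 1 with no fold change minimum, *Mymx* in each case. With LiCl replicate 2 alone, *Myog* (-0.85), *Mylpf* (-0.29) and *Smyd1* (-0.65) reversed on the log2 scale among the 8 called members. The tested members that were not called all had negative values there except *Chrnb1* (0.06) and *Ryr1* (0.75). Filters changed which members were tested at all, LiCl replicate 2 alone is 1 sample, and the other causes were not tested.

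Of all tested genes, 498 were called higher and 835 lower. These counts were 177 and 141 with limma on log2(FPKM + 1), 171 and 139 without its filter, and 3844 and 4071 with no fold change minimum. With limma on log2(FPKM + 0.1), 347 genes were higher and 430 lower. The number higher was 513 with RLE size factors, 472 with library size only and 512 with DESeq2. It was 684 with no filter on low counts, 360 with at least 10 counts in every sample and 478 with the replicate block. Fits that left out 1 sample gave from 477 to 556. The summed CPM, the highest sample of each member and the number of LiCl spans over 1 kept their values within replicate spread under RLE size factors and library size only.

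The deviations of samples with equal replicate numbers from their group means correlated at 0.03, -0.09 and 0.10. Unequal numbers were not compared, so these values do not settle whether the replicate numbers pair the samples. With the replicate number as a block, 7 members were called higher, with *Myog* (adjusted p = 0.088) and *Smyd1* (adjusted p = 0.055) not called and *Myl1* called in edgeR. Members with few counts are limited by depth, since 3 counts in LiCl replicate 2 are 0.105 CPM.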

Other observations

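Among genes outside the list with a mean of at least 1 CPM, those in which LiCl replicates 1 and 3 stood most above the 4 other samples included further genes of striated muscle. *Mylk4*, encoding a myosin light chain kinase family member, came first, with control counts of 3, 4 and 2 and LiCl counts of 46, 2 and 135, so that the smaller of LiCl replicates 1 and 3 was 11.5 times the highest other sample. *Synpo2l*, a Z disc protein gene, followed at 3.00 and *Cdh15*, the gene of M-cadherin of myoblasts and satellite cells, at 2.36, with control counts of 23, 36 and 30 and LiCl counts of 85, 21 and 110. *Rxfp2*, the receptor of insulin-like peptide 3 in the gubernaculum, was at 2.11, with control counts of 58, 52 and 111 and LiCl counts of 238, 100 and 278. *Tc2n*, *Gm45758*, *Ccn3*, *Rnf151* and *Ebf2* had ratios from 1.77 down to 1.60. Of the 24 listed members with the same mean, 13 had a ratio at or above that of *Ebf2*, led by *Myh3* at 13.2, *Smyd1* at 5.37 and *Actn2* at 5.26. These genes were ranked by the pattern itself, so their values are a description.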
